A study of Mus musculus with 14 samples.

Results

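Il4, Il5, Il13, Il10, Il9 and Il6, the type 2 and regulatory interleukins of helper T cells, were read on all probe sets that the platform annotation assigns to them. Each gene had 1 probe set, and all 6 passed the filter on low signal. They are 6 of 18194 annotated genes on the array. The RNA came from mouse T cells polarised for 2 weeks towards Th2 or Th1, and 14 arrays held 1 condition each. The siRNA arrays, in each cell type, were Trpm4 siRNA and Thy1 siRNA (Thy1 is a T cell surface glycoprotein), beside untreated cells. The retrovirus arrays were cells infected with dominant negative (DN) Trpm4 or with the empty vector, each stimulated for 12 h or 4 h. Trpm4 is a cation channel that calcium inside the cell opens, and the series asks what its inhibition does to transcripts of each cell type. The stimulus, the mouse strain, the promoter of the retrovirus and whether infected cells were sorted are not stated in the labels. The labels give no stimulation time for the untreated and siRNA arrays.

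Helper T cells are sorted into types by the cytokines they secrete. Th2 cells make interleukins 4, 5 and 13, whose genes lie side by side under the transcription factor Gata3 and act on B cells, eosinophils and epithelium in allergy and worm infection. After stimulation through the antigen receptor, calcium entry activates the NFAT factors, which bind cytokine promoters. By letting in sodium, Trpm4 depolarises the membrane and limits the driving force for calcium.

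Il4, Il13 and Il5 lie in that order along chromosome 11 (GRCm38), at chr11:53612460-53618665, chr11:53631323-53634702 and chr11:53720794-53725103, with the DNA repair gene Rad50 between Il13 and Il5. Il10 lies at chr1:131019845-131024970, Il9 at chr13:56479277-56482257 and Il6 at chr5:30013114-30019975. The promoter windows of the 3 clustered genes, which were high together in Th2 cells, are shown with that of Il9, which did not share their pattern. Each runs 5′ to 3′ on the strand of the gene, from 250 bases before the start of the gene to 50 after it, as listed by RefSeq on GRCm38.p6, with the NFAT core GGAAA in capitals on either strand (TTTCC on the other one).
Il4 (chr11:53618616-53618915, minus strand): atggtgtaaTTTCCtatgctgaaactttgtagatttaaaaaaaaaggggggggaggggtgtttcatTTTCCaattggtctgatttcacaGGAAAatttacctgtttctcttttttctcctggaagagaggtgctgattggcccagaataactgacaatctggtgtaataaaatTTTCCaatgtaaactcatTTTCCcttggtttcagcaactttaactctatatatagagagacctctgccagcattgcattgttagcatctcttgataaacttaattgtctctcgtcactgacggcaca
Il13 (chr11:53634653-53634952, minus strand): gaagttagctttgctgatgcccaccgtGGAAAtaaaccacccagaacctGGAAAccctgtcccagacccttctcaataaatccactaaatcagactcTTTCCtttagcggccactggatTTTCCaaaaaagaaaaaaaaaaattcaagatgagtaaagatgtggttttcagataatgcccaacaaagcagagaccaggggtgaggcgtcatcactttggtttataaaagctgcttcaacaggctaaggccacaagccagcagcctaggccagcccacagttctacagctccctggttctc
Il5 (chr11:53720544-53720843, plus strand): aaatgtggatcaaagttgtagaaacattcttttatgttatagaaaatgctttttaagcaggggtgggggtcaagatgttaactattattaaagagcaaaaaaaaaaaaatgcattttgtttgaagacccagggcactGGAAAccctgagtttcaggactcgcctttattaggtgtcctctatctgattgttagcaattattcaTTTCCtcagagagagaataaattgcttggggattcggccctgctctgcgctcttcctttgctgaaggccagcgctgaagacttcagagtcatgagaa
Il9 (chr13:56482208-56482507, minus strand): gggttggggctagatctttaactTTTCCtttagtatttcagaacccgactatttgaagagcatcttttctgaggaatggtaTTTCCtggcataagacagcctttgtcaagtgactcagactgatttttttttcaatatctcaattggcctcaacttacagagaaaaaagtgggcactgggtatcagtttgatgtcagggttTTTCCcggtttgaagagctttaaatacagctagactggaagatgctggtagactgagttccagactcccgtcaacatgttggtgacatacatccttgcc

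The Il4 window held 5 NFAT cores, that of Il13 held 4, that of Il9 held 3, that of Il6 (chr5:30012864-30013163, plus strand) held 3 and that of Il5 held 2. Over 32851 mouse promoter windows of the same length 61.3% held at least 1, with a median of 1. Another window of Il4, at chr11:53617289-53617588 within the gene, held 1. The GATA core GATAA was found once each in the windows of Il4, Il13 and Il6 (25.4% of all windows hold it). A STAT motif, TTC and GAA separated by 4 bases, was found once each in those of Il4 and Il9 (7.0%), and the one in Il4 overlaps an NFAT core. AP-1 sites, TGANTCA, were found once each in Il9 and Il6 (7.8%), and TATAAA was found on both strands at overlapping positions in Il13 (13.6%). The NF-kB motif, GGG and CC separated by 5 bases, had 2 matches in Il9 and 3 in Il6 (50.8% of windows hold it), of which 1 overlapping couple in each gene also overlaps an NFAT core. All motifs were searched on both strands. The matches are letters in a window, and binding was not measured. No Il10 window was read.

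The targeted genes and the quality of the arrays were read before the interleukins. Trpm4 had a deposited signal of 84.5 with Trpm4 siRNA, against 133 with Thy1 siRNA in Th2 cells, and of 58.4 against 100.3 in Th1 cells. DN Trpm4 gave 129 at 12 h and 128 at 4 h in Th2 cells, against 135 and 117 with the vector, and 516 and 119 in Th1 cells, against 75.3 and 70.5. The untreated arrays had 161 in Th2 cells and 76.4 in Th1 cells. Neither the labels nor the annotation say whether the probe set reads the DN construct, so these arrays are named by their labels. Thy1 had 937 with Thy1 siRNA, against 4362 with Trpm4 siRNA in Th2 cells, and 2735 against 7254 in Th1 cells. The untreated arrays had 6182 in Th2 cells and 6355 in Th1 cells. The control of the siRNA pairs thus had less Thy1 transcript than both the Trpm4 siRNA and the untreated arrays. The 4 Th2 retrovirus arrays and the Th1 arrays at 4 h carried a strong 3′ bias, with log2 differences of 3′ minus 5′ control probe sets of 5.22 to 5.72 for Gapdh and 3.93 to 4.78 for Actb. In the other 8 arrays, Th1 at 12 h among them, these ran from -0.25 to 0.04 and from 0.05 to 0.47. Total signal ran from 7324678 to 10608719 per array.

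The cells were checked against markers of their type. The 4 Th2 markers on the array, Gata3 among them, summed to a signal of 1543 to 4828 in Th2 arrays and 237 to 652 in Th1 arrays. The 5 Th1 markers summed to 411 to 3130 in Th2 arrays and 6148 to 15085 in Th1 arrays. The sums did not overlap between the cell types. In every Th2 array most of the Th2 sum was Gata3, which is also read below among the transcription factors. Gata3 held 1474 of 1543 with the vector at 12 h and 3837 of 4828 with Trpm4 siRNA. In the siRNA and retrovirus Th1 arrays most of the Th1 sum was Ifng, which is also read below among the other cytokines. It held 11134 of 12517 with Thy1 siRNA and 10715 of 12701 with the vector at 12 h. In untreated Th1 cells it held 1408 of 6148. Sums without Gata3 or without Ifng were not read. Single markers went against their label, mainly in the siRNA arrays. Ccr4, a Th2 marker, had 50.6 and 46.8 in Th2 cells with Trpm4 and Thy1 siRNA, against 290.2 and 219 in Th1 cells. The Th1 markers Tbx21, at 862 and 830 in Th2 against 462 and 447 in Th1 cells, and Cxcr3, at 167 and 197 against 103 and 104, were higher in the Th2 siRNA arrays. With DN Trpm4 at 12 h their deposited signals were also higher in Th2 cells, at 900 against 782 for Tbx21 and 180 against 162 for Cxcr3. Cxcr3 was so with the vector at 4 h too, at 351 against 339. In the other retrovirus pairs both had lower deposited signals in Th2 cells. Mast cells, basophils and eosinophils can also make Il4, Il5 and Il13. Their marker sums were 111 to 309 in Th2 and 101 to 132 in Th1 arrays for the 6 mast cell and basophil genes, of which 3 passed the filter and 0 were called, and 33.3 to 135 in Th2 and 56.1 to 723 in Th1 arrays for the 3 eosinophil genes, of which 1 passed the filter and was lower in Th2 cells. Epx, the eosinophil peroxidase, stayed between 3.87 and 14.1 in Th2 arrays and between 6.4 and 18.1 in Th1 arrays, below the median signal of every array. The 8 macrophage and dendritic cell genes summed to 263 to 499 in Th2 arrays and 164 to 301 in Th1 arrays. This sum was higher in Th2 cells in every pair of matched treatment, and 0 of the 8 genes were called. Its part in the interleukin differences was not tested.

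Th2 cells had far more Il4, Il5, Il13 and Il10 transcript than Th1 cells, and more Il6, while Il9 showed no call in either direction. The comparison was made over 7 pairs of arrays of matched treatment with limma, whose log2 differences are given ± SE with Benjamini-Hochberg adjusted p over 29467 probe sets. Of the 6 interleukins 5 passed at 0.05, all higher in Th2, where 9.79% of probe sets passed in all and 6.14% passed as higher and 3.65% as lower. Every Th2 array lay above every Th1 array for 3 of the 6, against 1.49% of probe sets. The 3′ bias moved with cell type in the 2 pairs at 12 h. There the Gapdh 3′ minus 5′ difference was 5.48 with DN Trpm4 and 5.22 with the vector in Th2 cells, against -0.01 and -0.08 in Th1 cells. Without these pairs Il4, Il5, Il13 and Il10 still passed, at 6.45, 5.13, 3.42 and 2.92 (adjusted p from 0.00355 to 0.0121), and Il6 did not. With the 3 untreated and siRNA pairs alone, a subset chosen after seeing the data, 0 of 6 passed (adjusted p from 0.0774 to 0.479). The means over these 3 pairs were 5.85 for Il4, 4.64 for Il5, 2.61 for Il13, 3.35 for Il10, 1.002 for Il6 and -1.79 for Il9. In bulk RNA, fewer cells making a transcript and less transcript per cell cannot be told apart. The arrays are 1 per condition, and pairs of the same set share culture and handling as far as the labels tell, so these p-values measure only the spread between these samples, and their precision is limited by how many arrays there are.

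Il4, which drives Th2 differentiation and the switch of B cells to IgE, had deposited signals of 226 to 8478 in Th2 arrays (median 2623), against 2.96 to 25.8 in Th1 arrays (median 10.9). The groups did not overlap, and only 1 Th1 array lay above the median probe set of its array. Its log2 difference was 6.59 ± 0.52 (adjusted p = 8.87e-05), the smallest pair being untreated cells at 2.73 and the other 6 pairs lying between 6.82 and 7.88.

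Il5, the growth and survival factor of eosinophils, followed the same course. Its signal was 249.8 to 5534 in Th2 arrays (median 2316), against 2.89 to 51.6 in Th1 arrays (median 12.1), with no overlap. The log2 difference was 5.68 ± 0.56 (adjusted p = 0.000366), again with untreated cells lowest, at 1.76, and DN Trpm4 at 12 h highest, at 7.41.

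Il13, which acts on airway epithelium and smooth muscle through a receptor that shares a chain with that of Il4, was not silent in Th1 cells. It had 266 to 5422 in Th2 arrays (median 4668), against 1 to 1424 in Th1 arrays (median 265). The groups overlapped, since untreated Th2 cells lay below siRNA-treated and 12 h DN Trpm4 Th1 cells, though every Th2 array lay above the Th1 array of its own treatment. The pairs ran from 1.76 with Thy1 siRNA to 4.85 with the vector at 4 h, with a mean of 3.59 ± 0.38 (adjusted p = 0.000541).

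Il10, an anti-inflammatory cytokine that restrains macrophages and dendritic cells and can be made by both T cell types, was above the median probe set in all 14 arrays. It had 2532 to 6819 in Th2 arrays (median 3845), against 63.3 to 1289.9 in Th1 arrays (median 876), with no overlap. Untreated cells showed the widest gap, 4.82, and the vector at 12 h the narrowest, 1.57, for a mean of 2.55 ± 0.34 (adjusted p = 0.00189).

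Il6, an inflammatory cytokine that can promote Th2 and Th17 responses, was split by the set of arrays. It had 154 to 558 in Th2 arrays (median 438), against 3.93 to 545 in Th1 arrays (median 29.96), and the groups overlapped. In the siRNA pairs Th2 and Th1 cells were close, at -0.37 with Trpm4 siRNA and 0.31 with Thy1 siRNA, while the other 5 pairs lay between 2.71 and 3.77. The mean of 2.32 ± 0.50 passed (adjusted p = 0.0199). That call ended without the pair block (adjusted p = 0.0549), without any 1 of the pairs DN Trpm4 at 4 h (0.0529), vector at 12 h (0.055) or DN Trpm4 at 12 h (0.0581), and without both 12 h pairs (0.13). In the untreated and siRNA pairs alone the mean was 1.002 (adjusted p = 0.479), and in the 4 retrovirus pairs alone, likewise chosen after seeing the data, it was 3.31 (adjusted p = 0.00139).

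Il9, a growth factor of mast cells and the defining product of Th9 cells, stood at the other end. It had 10.65 to 103 in Th2 arrays (median 14.3), against 7 to 611 in Th1 arrays (median 20.9). The groups overlapped, and the signal exceeded the median probe set only in the siRNA arrays of both types and in untreated Th1 cells. Th2 was lower in 5 of 7 pairs, by -2.24 with Trpm4 siRNA and -2.19 with Thy1 siRNA, with the retrovirus pairs within -0.33 to 0.19. The mean of -0.81 ± 0.32 did not pass (adjusted p = 0.14).

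**Figure D1:**
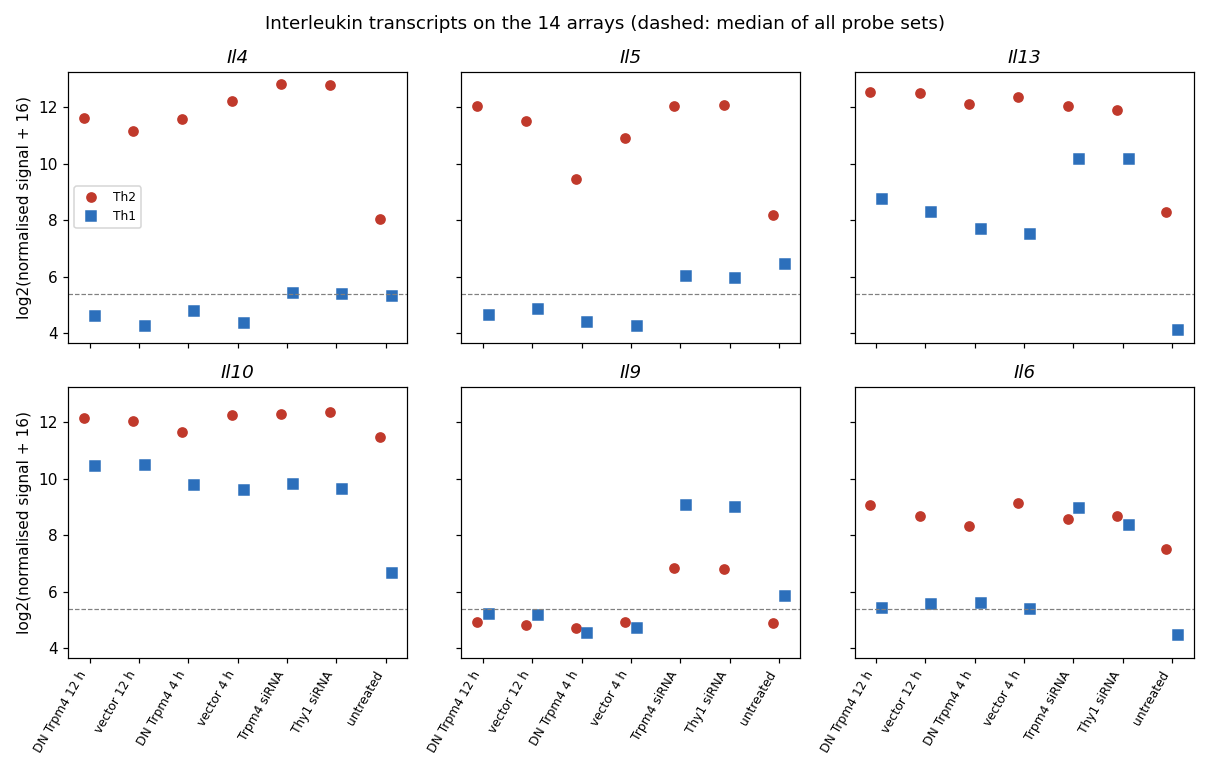
Log2 of the normalised signal plus 16 (vertical axis) for each of the 6 interleukins on the 14 arrays (horizontal axis, 1 point per array, Th2 as red circles and Th1 as blue squares). Il4, Il5 and Il10 were higher in every Th2 array than in any Th1 array, whereas Il9 was highest in the Th1 siRNA arrays.

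**Figure D2:**
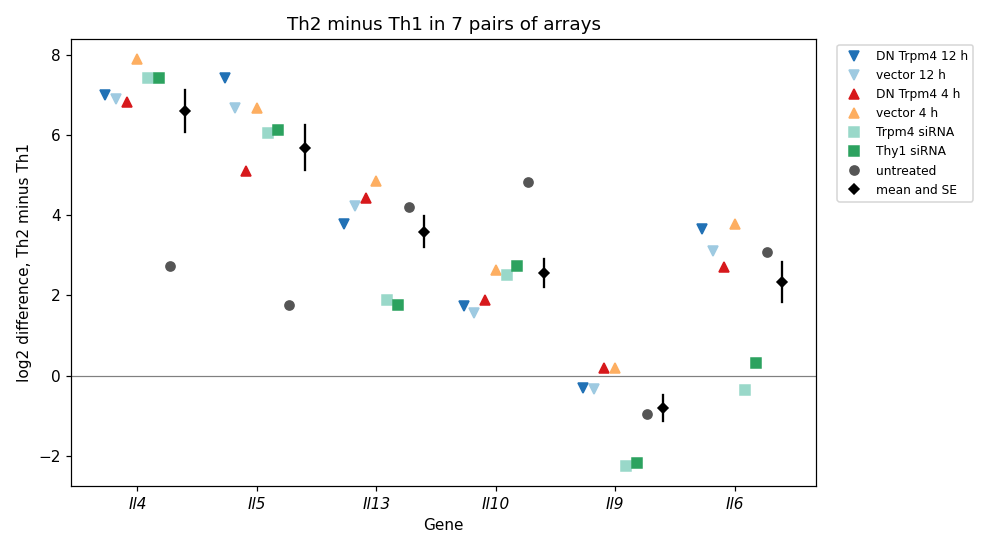
Log2 difference of Th2 minus Th1 (vertical axis) for each interleukin in each of the 7 pairs (coloured points), with the limma mean and SE (black diamonds and bars). Untreated cells gave the lowest differences for Il4 (2.73) and Il5 (1.76) and the highest for Il10 (4.82), and the siRNA pairs gave the lowest for Il13, Il9 and Il6.

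Across the 14 arrays Il4 and Il5 were the most alike of the interleukins, with Pearson's r of 0.97 between their log2 signals. The r of Il9 with the other 5 ran from -0.20 to 0.35. Among all annotated genes the patterns most like that of Il4 were those of Fgf13 (r = 0.98), Sema4b, Cxcl3, Il5 and Cyp11a1, and those most like Il5 were Fgf13 (0.98), Il4, Mindy1, Sema3e and Hpgd. Il13 came nearest to Galc (0.97), Galnt2, Nmt1, Shtn1 and Lrrfip2, and Il10 to Cd81 (0.95), Hipk2, Zfp148, Ap2m1 and Spred2. Il6 came nearest to Kif3a (0.97), Mlkl, Fam20b, Tamm41 and Vti1a, and Il9 to A230001M10Rik (0.97), Drosha, Shroom3, Fndc11 and Tulp1. These values are descriptive, over 14 arrays that share cell type and set.

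Genes beside the chromosome 11 cluster were read for the same difference. On the side of Il4, Kif3a, a kinesin of cilia that is also named above for Il6, was higher in Th2 cells by 0.70 ± 0.19 (adjusted p = 0.0489), and Septin8 by 1.66 ± 0.19 (adjusted p = 0.000725). Rad50, inside the cluster, had 0.72 ± 0.25 and did not pass (adjusted p = 0.0932). Beyond Il5, the interferon-induced factor Irf1 was higher by 2.03 ± 0.37 (adjusted p = 0.00914), and the carnitine transporter Slc22a5 had 0.35 ± 0.14 (adjusted p = 0.147). Of the 6 nearest genes of Il10, of Il9 and of Il6, none of those tested passed.

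The receptors through which the interleukins act were followed on the receiving side. Of 12 chains listed, 11 were on the array and 8 were tested. Th2 cells had more of 4 of them and less of 0, where 6.14% of all probe sets were higher and 3.65% lower. The median log2 difference was 0.89, against -0.01 over all probe sets. Csf2rb, the signalling chain shared by the receptors of Il5, Il3 and Csf2, had 75.8 to 133 in Th2 arrays and 4.01 to 60.04 in Th1 arrays, without overlap, and rose by 1.72 ± 0.25 (adjusted p = 0.00303). Its near-identical copy Csf2rb2 rose by 1.12 ± 0.21 (adjusted p = 0.0114), and the probe sets may cross-read, so the split between them is uncertain. The Il10 receptor chains Il10ra and Il10rb rose by 1.34 ± 0.26 (adjusted p = 0.012) and 1.16 ± 0.24 (adjusted p = 0.0158). At 4 h, where both types carried the 3′ bias, Il10ra had 299 with DN Trpm4 and 365 with the vector in Th2 cells. The Th1 values were 256 and 252. At 12 h, where only Th2 arrays carried it, Il10ra had 191 and 160, against 23.4 and 23.6. Il10rb had 438 and 364 against 322 and 306 at 4 h, and 310 and 319 against 65.7 and 55.3 at 12 h. Both chains overlapped between the cell types. The part of the bias in these differences was not tested. Il4ra, the chain that binds Il4 and takes part in the Il13 receptor, had 0.36 ± 0.25, and the Il5-binding Il5ra had -0.20 ± 0.24, neither of which passed (adjusted p = 0.378 and 0.621).

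Of 23 kinases and transcription factors, 7 were higher in Th2 cells and 1 was lower, with a median of -0.12. Of all probe sets 6.14% were higher and 3.65% lower. Maf, which transactivates Il4 and Il10, had 2289 to 3777 in Th2 arrays and 115 to 782 in Th1 arrays, a log2 difference of 3.69 ± 0.30 (adjusted p = 8.95e-05). Gata3 had 1474 to 3837 in Th2 arrays and 199.6 to 387 in Th1 arrays, a difference of 2.92 ± 0.12 (adjusted p = 2.16e-06). Neither factor overlapped between the cell types. Nfil3 rose by 1.86 ± 0.19, the AP-1 family member Batf by 1.64 ± 0.25, Cebpb by 1.38 ± 0.21 and Prdm1, which encodes Blimp-1 and supports Il10 in T cells, by 1.17 ± 0.17 (adjusted p from 0.000425 to 0.0036), and Ikzf1 by 0.52 ± 0.14 (adjusted p = 0.0478). Irf4, a factor that Th2 and Th9 cells need, was lower in Th2 cells by a log2 difference of -0.81 ± 0.13 (adjusted p = 0.00457). Stat6, which carries the Il4 signal, had -0.61 ± 0.18 and did not pass (adjusted p = 0.062).

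Of the other cytokines of helper T cells 10 were tested, of which 2 were higher in Th2 cells, 4 were lower and the median was -1.09. The shares of all probe sets were 6.14% higher and 3.65% lower. Lif, a relative of Il6 that signals through the same gp130 chain, rose by 2.69 ± 0.63 (adjusted p = 0.0268) and Il21, a product of follicular helper cells among others, by 1.88 ± 0.31 (adjusted p = 0.00623). In the siRNA pairs Lif was close, at 347 with Trpm4 siRNA and 388 with Thy1 siRNA in Th2 cells, against 409 and 342 in Th1 cells. At 12 h, where the 3′ bias moved with cell type, Lif had 756 with DN Trpm4 and 674 with the vector, against 19.2 and 18.7. Untreated cells had 955 in Th2 against 20.7 in Th1. Il2, the T cell growth factor, had a log2 difference of -3.84 ± 0.47, and Ifng, the hallmark of Th1 cells, one of -3.54 ± 0.27. The inflammatory cytokine Tnf had -2.02 ± 0.26, and Csf2, the granulocyte and macrophage growth factor, had -1.37 ± 0.13 (adjusted p from 7.15e-05 to 0.00162 for the 4 genes).

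**Figure D3:**
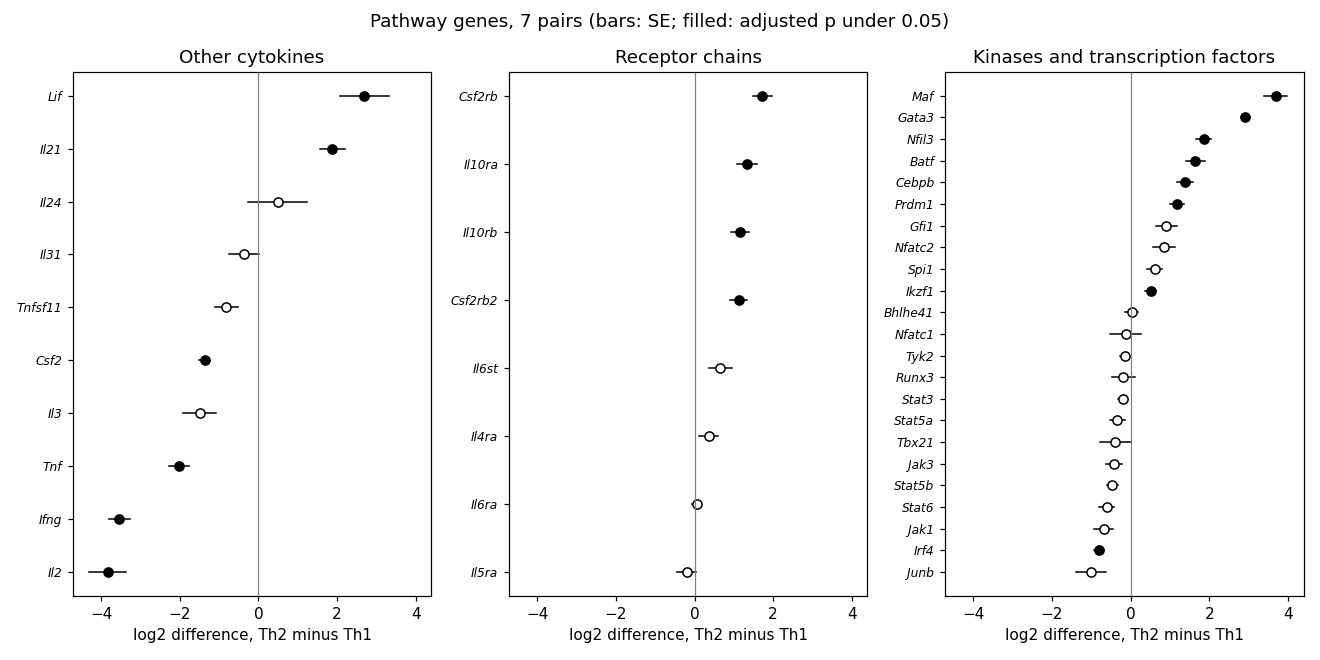
Log2 difference of Th2 minus Th1 (horizontal axis) for tested genes of each list (vertical axis), with SE bars over 7 pairs and filled points where adjusted p was under 0.05. Receptor chains lay mostly above 0, and among the transcription factors Maf (3.69) and Gata3 (2.92) stood highest and Junb and Irf4 lowest.

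Cells that received siRNA had more of most interleukins than the untreated cells of the same type. These values are single ratios with no test, both siRNA arrays of a type are set against 1 untreated array, and the labels do not say whether the siRNA cells were stimulated. In Th2 cells 5 of 6 interleukins were over 2-fold higher on the normalised log2 scale on each siRNA array, against 9.16% of probe sets with Trpm4 siRNA and 9.83% with Thy1 siRNA. In Th1 cells 4 of 6 were, against 16.1% and 16.2%.

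Il4 had 8478 with Trpm4 siRNA and 8374 with Thy1 siRNA, against 226 untreated in Th2 cells. The Th1 values were 25.8 and 25.2, against 18.5. The log2 differences from untreated cells were 4.77 and 4.74 in Th2 and 0.08 and 0.05 in Th1, so the gap lay in Th2 cells for these arrays. Il5 had 5491 and 5534 in Th2 cells against 249.8 untreated, and 47.5 and 43.1 in Th1 cells against 51.6 untreated. Its log2 differences were 3.86 and 3.88 in Th2 and -0.42 and -0.48 in Th1.

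The remaining interleukins were higher with siRNA in Th1 cells too. Il13 had 5422 and 5035 against 266 in Th2 cells and 1424 and 1379 against 1 in Th1 cells, log2 differences of 3.76 and 3.64 in Th2 and 6.07 and 6.07 in Th1. Its untreated Th1 signal of 1 lies at the bottom of the array, which leaves that log2 difference dependent on the pseudocount. Il10 had 6470.3 and 6819 against 2532 in Th2 cells and 1066 and 876 against 63.3 in Th1 cells, which gave 0.82 and 0.87 in Th2 and 3.12 and 2.96 in Th1. Il9, at 103 and 93.7 against 12.3 in Th2 cells and at 611 and 529.8 against 31.7 in Th1 cells, had differences of 1.94 and 1.91 in Th2 and 3.24 and 3.15 in Th1. Il6 had 438 and 439 against 154 in Th2 cells and 545 and 316 against 3.93 in Th1 cells, differences of 1.06 and 1.14 in Th2 and 4.50 and 3.90 in Th1. The gap to untreated cells was under 2-fold on the normalised log2 scale for Il10 in Th2 cells and for Il4 and Il5 in Th1 cells, and the siRNA arrays stood furthest from each other for Il6 in Th1 cells. Untreated Th1 cells held the highest summed signal of 5 markers of CD8 T cells and natural killer cells, 5544, against 927 with Trpm4 siRNA and 903 with Thy1 siRNA in Th1 cells. In Th2 cells this sum was higher with siRNA, at 976 and 963 against 313 untreated. Markers of other cells were lower in the Th2 siRNA arrays than in untreated Th2 cells, with 139.5 and 111 against 309 for mast cells and basophils, 275 and 292 against 499 for 8 macrophage and dendritic cell genes, and 125 and 111 against 243 for 5 B cell genes. The part of these sums in the differences was not tested.

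The retrovirus arrays compare 12 h with 4 h of stimulation. Over all 4 pairs 0 of 6 interleukins passed, where 2.01% of probe sets did. An unadjusted limma p under 0.05 was found for 2 of the 6 (Il5 and Il13), and for 8301 of 29467 probe sets. The log2 differences of 12 h minus 4 h were 1.01 ± 0.40 for Il5, 0.60 ± 0.19 for Il13, 0.47 ± 0.20 for Il10, 0.31 ± 0.17 for Il9, 0.08 ± 0.23 for Il6 and -0.32 ± 0.22 for Il4 (adjusted p from 0.12 to 0.83). By cell type, 1 of 6 passed in Th2 cells, where 10.1% of probe sets did, and 3 of 6 in Th1 cells, where 56.1% did and 27% were higher. The Th1 arrays at 4 h carried the 3′ bias and those at 12 h did not, so in Th1 cells time cannot be told apart from it. As calls in either direction, 3 of 6 lies near the 56.1%. All 3 were higher at 12 h, against 27% of probe sets.

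Il5 in Th2 cells had 3567 with DN Trpm4 and 2316 with the vector at 12 h, against 624 and 1851 at 4 h. Both pairs lay above 0, at 2.58 and 0.61, and the DN pair carried most of the mean of 1.60 ± 0.37 (adjusted p = 0.0307). The call ended without the DN pair (0.61, adjusted p = 0.0814), with no filter (adjusted p = 0.0506) and with a pseudocount of 1 (adjusted p = 0.175). Il4 in Th2 cells had 2623 and 1855 at 12 h against 2446 and 4243 at 4 h. Its DN pair was level at 0.03 and its vector pair lay at -1.08, and the mean of -0.53 ± 0.23 did not pass (adjusted p = 0.201).

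In Th1 cells the arrays of Il13 had 372.5 with DN Trpm4 and 265 with the vector at 12 h, against 208 and 182 at 4 h, and the log2 difference was 0.92 ± 0.15 (adjusted p = 0.000911). Il10 had 1258 and 1289.9 against 852 and 769, a difference of 0.77 ± 0.18 (adjusted p = 0.00661). Il9 had 20.9 and 18.8 against 7 and 10.3, all below the median of the array, with 0.56 ± 0.15 (adjusted p = 0.0112). The 12 h arrays were above the 4 h arrays for these 3 genes. The Il9 call ended with a pseudocount of 64 (0.22, adjusted p = 0.0599) and without the Th1 vector pair (adjusted p = 0.0616) or the Th1 DN pair (adjusted p = 0.232), and the Il10 call ended without the Th1 vector pair (adjusted p = 0.0996). In Th1 cells Il4 and Il5 stayed at the floor, at 8.28 and 2.96 against 10.9 and 4.3 for Il4 and at 8.72 and 12.1 against 4.65 and 2.89 for Il5. Il6 in Th1 cells had 26.2 and 29.96 against 34.1 and 26.1.

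None of the remaining Th2 values passed. Il13 had 4892 and 4335 at 12 h against 3421 and 4668 at 4 h, Il10 had 3845 and 3263 against 2553 and 4307, and Il6 had 503 and 363 against 313 and 558. Il9 had 14.5 and 13.3 against 10.65 and 14.3. For Il10, Il9 and Il6 the DN pair lay above 0 and the vector pair below it. Tested as a difference of effects, Th2 minus Th1, Il13 gave -0.63 ± 0.21 (adjusted p = 0.0463) and the other 5 did not pass, where 38.2% of probe sets did. The Il13 call was lost in 8 of 14 alternatives (adjusted p from 0.0529 to 0.334), among them the deposited values, at -0.45 (adjusted p = 0.206), and 3 of the 4 fits with a pair left out.

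**Figure D4:**
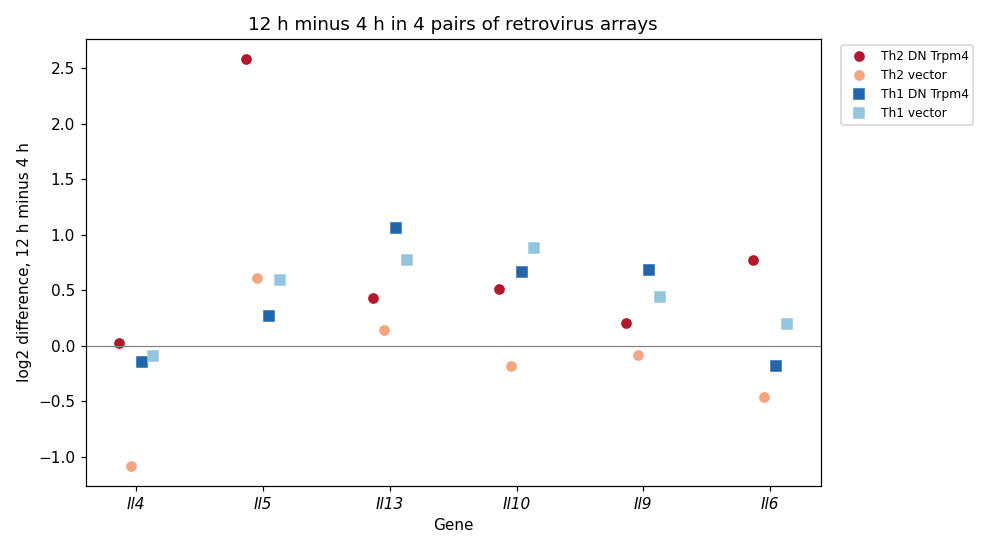
Log2 difference of 12 h minus 4 h (vertical axis) for each interleukin, with 1 point per pair of retrovirus arrays (circles Th2, squares Th1, darker for DN Trpm4 and paler for the vector). Il5 in Th2 cells with DN Trpm4 stood highest at 2.58, and the Th2 pairs of Il10, Il9 and Il6 lay on both sides of 0.

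The comparison of Trpm4 inhibited with control gave no call for any interleukin. Inhibited stands for arrays labelled Trpm4 siRNA or DN Trpm4, and the arrays do not show how far the channel was inhibited. In Th2 cells Trpm4 signal with DN Trpm4 was near the vector, at 129 against 135 at 12 h and 128 against 117 at 4 h. Over 6 pairs the count was 0 of 6, where 0% of probe sets passed in limma and 1733 of 29467 had an unadjusted p under 0.05, and 0 interleukins did. The mean log2 differences of inhibited minus control, with their 95% intervals, were 0.11 (-0.18 to 0.39) for Il4, -0.15 (-0.58 to 0.28) for Il5, 0.08 (-0.11 to 0.28) for Il13, -0.05 (-0.26 to 0.17) for Il10, -0.02 (-0.18 to 0.14) for Il9 and 0.03 (-0.31 to 0.36) for Il6. For Il13 and Il10 the intervals exclude a 2-fold change that is shared by all 6 pairs, within the spread of these arrays. For Il4, Il5, Il9 and Il6 they cannot decide it, because some signals lay near the 16 added before log2, which shrinks ratios. With DN Trpm4, Il4 in Th1 cells had deposited ratios of 2.54 at 4 h and 2.80 at 12 h. Its log2 differences there were 0.42 and 0.36. No interval covers a change in 1 cell type, method or time alone. In Th2 cells the means of 3 pairs ran from -0.30 ± 0.28 for Il5 to -0.02 ± 0.11 for Il9, and in Th1 cells from -0.01 ± 0.11 for Il9 to 0.27 ± 0.18 for Il4. The difference between the effects in Th2 and Th1 cells ran from -0.40 ± 0.29 for Il6 to -0.01 ± 0.15 for Il9. The count was 0 of 6, with 0% of probe sets called, in each of these and in DN Trpm4 minus vector and Trpm4 siRNA minus Thy1 siRNA.

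In Th2 cells the 6 log2 differences of Trpm4 siRNA minus Thy1 siRNA ran from -0.08 to 0.12. Il6 in Th1 cells, at 545 against 316, was 0.59 higher, and the other 5 ran from -0.0034 to 0.16.

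The DN Trpm4 pairs of Th2 cells lay on opposite sides of 0 at 4 h and 12 h. At 4 h all 6 interleukins lay below the vector, where 50.8% of probe sets did. Il5 had 624 against 1851, a log2 difference of -1.43, which is over 2-fold lower as in 0.132% of probe sets. Il6 had -0.83, Il4 had -0.65, Il10 had -0.59, Il13 had -0.26 and Il9 had -0.20. At 12 h all 6 lay above the vector, by 0.54 for Il5, 0.45 for Il4, 0.40 for Il6, 0.11 for Il10, 0.09 for Il9 and 0.02 for Il13, where 50.6% of probe sets did. Below at 4 h and above at 12 h was the course of 27.6% of probe sets. Each is 1 array against 1 array, with no replicate and no test.

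Other values moved with the 4 h pair. Actb was higher at its 3′ than at its 5′ probe set by 4.78 with DN Trpm4 and by 3.93 with the vector. Every other tested cytokine of helper T cells had a lower deposited signal with DN Trpm4 than with the vector. Il3 had 593 against 1587, Csf2 1439 against 2879, Il21 1105 against 2346 and Ifng 628 against 953. At 12 h Il3 (1141 against 862) and Csf2 (1790 against 1444) lay above the vector. Il21 (399 against 439) and Ifng (1327 against 1372) lay below it. Gata3 at 4 h had 1493 against 2259, and Cebpb went the other way, at 729 against 591. Their part in the interleukin values was not tested. In Th1 cells the DN pairs ran from -0.19 to 0.42 at 4 h and from -0.20 to 0.46 at 12 h, with Il4 at 10.9 against 4.3 at 4 h and 8.28 against 2.96 at 12 h, signals near the floor.

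**Figure D5:**
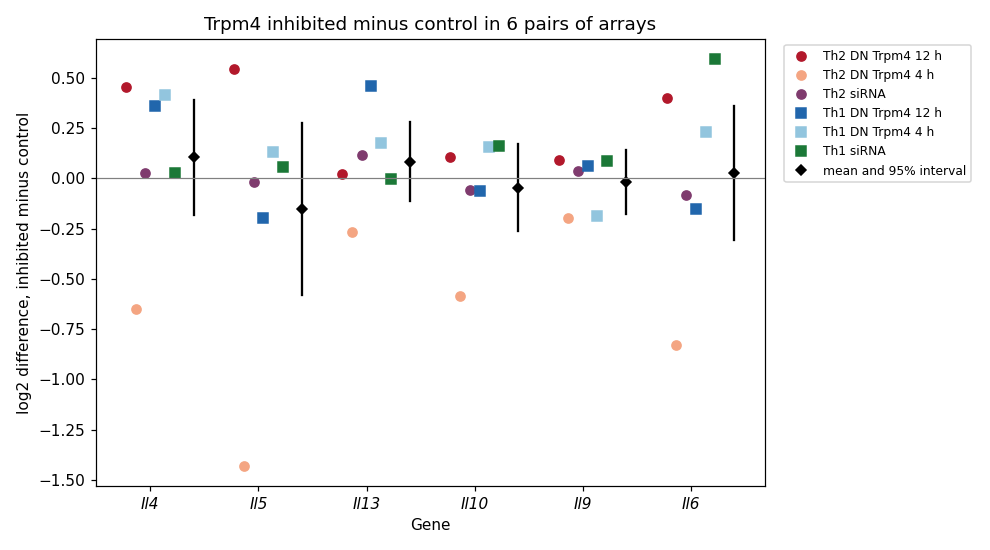
Log2 difference of Trpm4 inhibited minus control (vertical axis) for each interleukin, with 1 point per pair (circles Th2, squares Th1) and the limma mean with its 95% interval (black). For each gene the lowest pair was Th2 DN Trpm4 at 4 h, down to -1.43 for Il5, and every interval includes 0.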

How the data were processed

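Total RNA was labelled with biotin and hybridised to Affymetrix mouse arrays, per the labels' protocols. The authors deposited 1 linear intensity (signal) per probe set, and no source used here gives their summary or scaling method. Of 45101 probe sets, the annotation gives 34958 a single gene, 932 several genes and 9211 no gene, and 64 are controls that entered no test. Signals were quantile normalised over 14 arrays and 16 was added before log2, so the floor is 4 and the median 5.39, and differences near the floor are understated. Probe sets above the array median in at least 2 arrays were kept, 29467 of them for 13118 genes. Tests used lmFit and eBayes of limma 3.58.1 (R 4.3.3), two-sided, with Benjamini-Hochberg adjustment over all kept probe sets, threshold 0.05 and the matched pair of arrays as a block. The same treatment labels both cell types, which gives the pairing. A gene is read on its probe set of highest mean. The text names the 6 interleukins, listed pathway genes, mainly those past the threshold, the 3 nearest genes on each side and the 5 genes of highest correlation. Members and lists were chosen with earlier results of these data known. Alternatives were other normalisations, filters, pseudocounts, variance priors, 1 probe set per gene, no pair block and each pair left out. The fits were tested on simulated data. Sequences come from RefSeq (GRCm38.p6), with windows for 5 of 6 members.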

Additional observations from a re-analysis of the deposited data

Results flagged for a closer look

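The time effect on Il13 differed between the cell types by the test of that difference. The log2 difference of 12 h minus 4 h was 0.29 ± 0.15 in Th2 cells and 0.92 ± 0.15 in Th1 cells (2 pairs each), and the Th2 effect minus the Th1 effect was -0.63 ± 0.21 (limma, adjusted p = 0.0463). The Th2 pairs stood at 0.43 with DN Trpm4 and 0.15 with the vector, and the Th1 pairs at 1.06 and 0.78. Of all probe sets 38.2% passed this test, and the Th1 arrays at 4 h and 12 h differ in 3′ bias, so in Th1 cells time cannot be told apart from that bias. The direction held in all 14 alternatives and the call was lost in 8. The adjusted p was 0.206 with deposited values, 0.151 with median centring, 0.0698 with no filter, 0.0949 with a pseudocount of 1 and 0.0529 with no pair block. It was 0.107 without the Th2 vector pair, 0.113 without the Th1 vector pair and 0.334 without the Th1 DN pair.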

How the results depend on the processing

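No alternative turned the direction of any interleukin in Th2 minus Th1, and Il4, Il5, Il13 and Il10 passed in each except the untreated and siRNA pairs alone, a subset chosen after seeing the data, where 0 of 6 passed of 319 probe sets called in all. The 4 retrovirus pairs alone, also chosen after seeing the data, kept 5 of 6. The probe sets called numbered 837 with no pair block, against 2884, 1732 with 1 probe set per gene (fewer were tested), 1256 without the 12 h pairs and 1450 to 2901 with each pair left out. For 12 h minus 4 h the count was 592, against 385 with median centring, 0 with a pseudocount of 1, 351 with a variance trend, 964 with 1 probe set per gene, 972 with no pair block and 0 with any pair left out, which leaves 3 pairs. In Th2 cells it was 2970, against 0 with a pseudocount of 1, 1905 with 1 probe set per gene and 1846 to 4042 with each pair left out. The interleukins called there were 0 with no filter or a pseudocount of 1 and 1 to 2 with a pair left out. In Th1 cells 16537 probe sets became 7518 with 1 per gene and 9919 to 18942 with a pair left out, and the interleukins called ran from 1 to 4. The difference of the time effects had 11253 calls, against 5078 with 1 per gene and 5845 to 12630 with a pair left out. Its count of interleukins was 0 with the deposited or median-centred values, no filter, a pseudocount of 1 or no pair block, and 0 to 4 with a pair left out. With Trpm4 inhibited the count of interleukins was 0 in every alternative run, and of probe sets too except 4 with a pseudocount of 64 and 98 with a variance trend in the siRNA comparison. A fit with 1 of its 2 pairs left out could not be made.

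Signs turned only for values that had not passed. For 12 h minus 4 h, Il6 was -0.016 with deposited values and -0.15 to 0.26 with a pair left out. In Th1 cells it was -0.061 with deposited values, -0.0011 with median centring and -0.19 to 0.20 with a pair left out. In Th2 cells leaving out a pair gave -1.08 to 0.027 for Il4, -0.18 to 0.51 for Il10, -0.084 to 0.21 for Il9 and -0.46 to 0.77 for Il6. The difference of the time effects gave -0.96 to 0.15 for Il4 and -0.46 to 0.77 for Il6. For Trpm4 inhibited minus control Il9 was 0.013 with deposited values, 0.017 with median centring and 0.0056 with a pseudocount of 64. Leaving out a pair there gave -0.29 to 0.10 for Il5, -0.087 to 0.062 for Il10, -0.039 to 0.019 for Il9 and -0.087 to 0.20 for Il6. In Th2 cells Il9 was 0.0093 with median centring, and a pair left out gave -0.31 to 0.24 for Il4, -0.72 to 0.26 for Il5, -0.12 to 0.070 for Il13, -0.32 to 0.026 for Il10, -0.080 to 0.064 for Il9 and -0.46 to 0.16 for Il6, in each case above 0 without DN Trpm4 at 4 h. In Th1 cells Il5 was 0.016 with deposited values, 0.0094 with median centring and 0.057 with a pseudocount of 1, and Il9 was 0.030 with deposited values, 0.024 with median centring and 0.015 with a pseudocount of 64. A pair left out gave -0.071 to 0.094 for Il5 and -0.061 to 0.076 for Il9 in Th1 cells. The difference of the Trpm4 effects had Il9 at 0.028 with a pseudocount of 1, and -0.099 to 0.076 for Il9 and -0.72 to 0.27 for Il5 with a pair left out. DN Trpm4 minus vector gave -0.50 to 0.16 for Il5, -0.023 to 0.22 for Il13, -0.18 to 0.068 for Il10 and -0.25 to 0.16 for Il6 with a pair left out. The cause of these shifts was not tested. Signal near the floor limits Il9, and Il4 and Il5 in Th1 cells.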
